A study of Homo sapiens with 6 samples.

Results

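The genes of mitosis and of the passage from G2 into mitosis (G2/M) were described in U2OS cells after SQLE silencing. The group was a list of 40 genes with textbook roles in cell division, out of 19937 genes in the count table. They were chosen by name and not by a cut on a measured value, but with earlier results of these data known. All 40 passed the filter on low counts that left 12450 genes for testing. U2OS is a long-established cell line from a human osteosarcoma. SQLE encodes squalene epoxidase, an enzyme of cholesterol synthesis. The 3 shSQLE libraries came from cells stably expressing a short hairpin RNA against SQLE from the lentiviral vector pGIPZ, and the 3 shControl libraries from cells with a scrambled hairpin in the same vector. Both lines had been selected for the vector with puromycin at 2 µg/mL, and both were grown in McCoy's 5a medium with serum and without any further treatment. Nothing in the sample descriptions names which hairpin was used or whether a group's libraries were made from separate cultures, so p-values measure only the spread between these libraries, which may be technical.

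Entry into mitosis is driven by the kinase CDK1 bound to cyclin A or cyclin B, which is switched on by CDC25 phosphatases. Polo-like and Aurora kinases then build the spindle, kinetochores attach chromosomes to its microtubules, and the spindle assembly checkpoint holds back the anaphase-promoting complex (APC/C, a ubiquitin ligase) until every chromosome is attached. Most of these genes are transcribed late in the cell cycle, under the transcription factors MYBL2 and FOXM1, and are held silent in resting cells by the DREAM complex, which binds the cell cycle genes homology region (CHR) of their promoters. NF-Y, a factor that binds CCAAT, commonly sits upstream of the CHR. Because their transcripts peak at division, these genes are widely used as markers of proliferation in tumours. In RNA from a bulk culture, a larger share of cells in G2 and mitosis and more transcript per cell cannot be told apart.

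Promoters of 7 members are shown so that a reader can see where these motifs lie, a feature that the list was not chosen on. The order of the motifs differed between them. They are the 200 bases before the RefSeq start (GRCh38.p14), written 5′ to 3′ along the gene, and end at the base before the start. Capitals mark the CHR, searched as TTTGAA or TTTAAA, and the NF-Y box, searched as CCAAT, each on both strands, so that the reverse complements TTCAAA and ATTGG are also in capitals. In MKI67 a CHR and an inverted NF-Y box overlap, and in ANLN a CHR in each orientation stand side by side.

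CCNB1, chr5:69166950-69167149, plus strand: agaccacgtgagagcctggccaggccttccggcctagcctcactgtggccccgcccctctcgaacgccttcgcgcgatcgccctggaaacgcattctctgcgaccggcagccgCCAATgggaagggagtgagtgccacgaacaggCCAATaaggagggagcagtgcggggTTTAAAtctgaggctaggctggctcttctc
CCNB2, chr15:59104946-59105145, plus strand: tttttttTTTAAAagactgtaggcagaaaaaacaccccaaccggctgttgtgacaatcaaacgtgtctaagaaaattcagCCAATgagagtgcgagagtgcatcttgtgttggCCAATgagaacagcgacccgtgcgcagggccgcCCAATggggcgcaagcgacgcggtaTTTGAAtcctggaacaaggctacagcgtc
PLK1, chr16:23678689-23678888, plus strand: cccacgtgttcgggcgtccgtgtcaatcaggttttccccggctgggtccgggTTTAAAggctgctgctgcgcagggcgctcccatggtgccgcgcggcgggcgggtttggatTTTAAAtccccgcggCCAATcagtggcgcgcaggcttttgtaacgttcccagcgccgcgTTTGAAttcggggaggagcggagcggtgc
CDC20, chr1:43358781-43358980, plus strand: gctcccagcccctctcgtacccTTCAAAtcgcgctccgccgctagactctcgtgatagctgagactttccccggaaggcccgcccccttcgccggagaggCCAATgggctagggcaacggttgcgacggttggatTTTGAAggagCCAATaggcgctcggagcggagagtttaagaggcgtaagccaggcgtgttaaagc
MKI67, chr10:128126424-128126623, minus strand: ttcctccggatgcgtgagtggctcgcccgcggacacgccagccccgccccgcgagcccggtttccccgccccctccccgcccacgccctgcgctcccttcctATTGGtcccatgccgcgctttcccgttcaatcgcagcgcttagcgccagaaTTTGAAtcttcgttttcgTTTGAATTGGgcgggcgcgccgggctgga
TOP2A, chr17:40417897-40418096, minus strand: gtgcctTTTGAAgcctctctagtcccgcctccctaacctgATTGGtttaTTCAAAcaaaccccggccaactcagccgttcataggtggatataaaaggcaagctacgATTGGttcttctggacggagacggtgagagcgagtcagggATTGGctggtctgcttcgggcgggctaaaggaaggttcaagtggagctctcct
ANLN, chr7:36389662-36389861, plus strand: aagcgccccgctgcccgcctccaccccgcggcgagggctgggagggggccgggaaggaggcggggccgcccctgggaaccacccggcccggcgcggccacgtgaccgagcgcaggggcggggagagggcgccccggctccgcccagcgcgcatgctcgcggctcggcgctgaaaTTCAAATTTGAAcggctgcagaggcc

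The cyclin B genes CCNB1 and CCNB2 and the kinase gene PLK1 each held a CHR with its first base 29 or 30 bases before the start and at least 1 NF-Y box further upstream. CCNB1 had the TTTAAA form at -30 and NF-Y boxes at -55 and -87. CCNB2 had TTTGAA at -29 and NF-Y boxes at -54, -87, -120 and -244. Others did not have this order throughout. TOP2A had its CHRs at -194 and -151 and NF-Y boxes nearer to the start, at -93 and -53, besides those at -244 and -160. CDC20 and MKI67 each had an NF-Y box nearer to the start than any CHR, at -55 and -24, and another at -100 and -98. ANLN, which encodes the contractile ring protein anillin, held a CHR at -26 and -20 but no NF-Y box in its window.

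RefSeq windows from 250 bases before to 50 bases after the start were matched for 34 of the 40 members, with 44 windows in all because 6 members had more than 1 start. The 6 without a window were AURKA, UBE2C, TPX2, FOXM1, BIRC5 and TTK. TTTGAA was found in 27 of the 44 windows, or 61.36%, and in 15.16% of the 35116 windows of all genes. TTTAAA was found in 14 of the 44, or 31.82%, beside 12.24% of all windows. Either form was present in 34 windows (77.27%, beside 23.99% of all), and CCAAT in 33 (75.0%, beside 34.61%). Windows with both a CHR and an NF-Y box made up 59.09% of the members' windows and 9.27% of all windows. Such a match is a description of the letters and not a measured binding site.

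**Figure D1:**
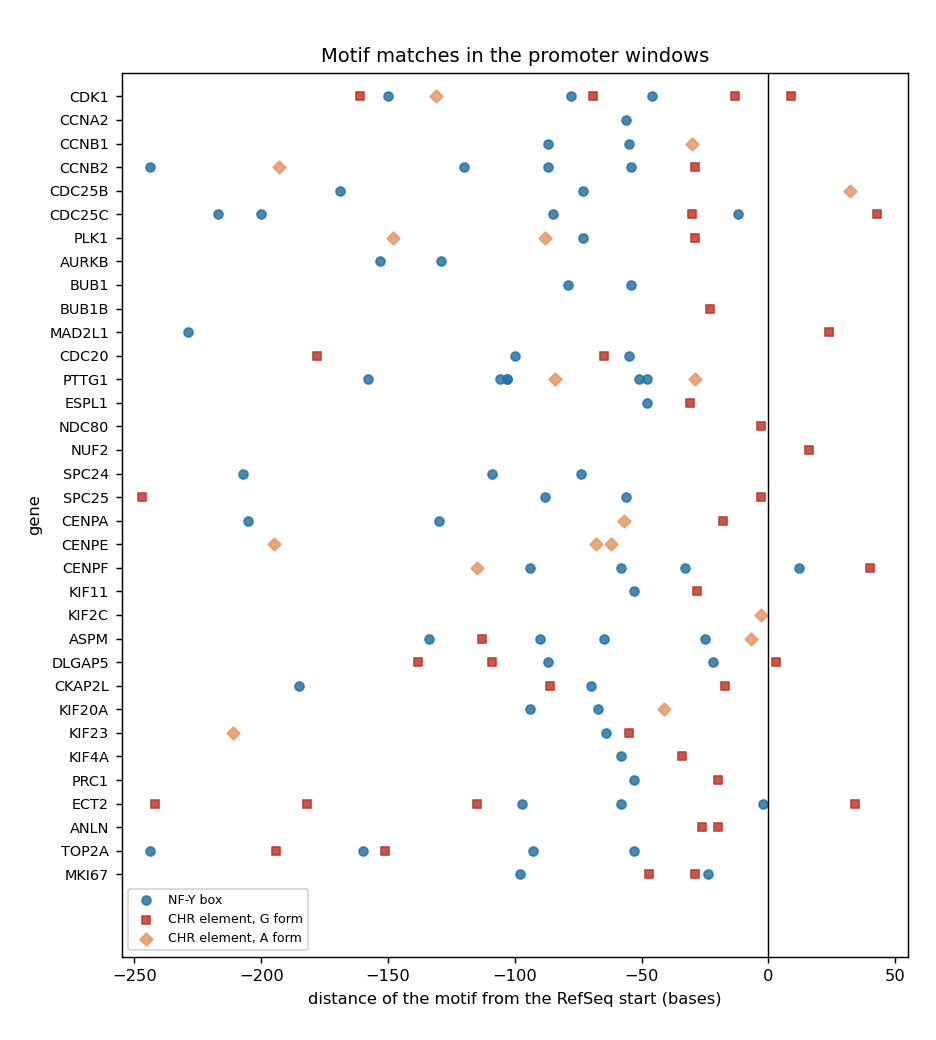
Position of each CHR (squares for TTTGAA, diamonds for TTTAAA, either strand) and each NF-Y box (circles) in the promoter windows of the 34 members with a RefSeq window, in bases from the start, which is the vertical line at 0. Rows are genes, positions are drawn for every window of a gene, and a CHR lay in the window of 30 of the 34 genes, many of them within the last 50 bases before the start.

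The libraries held 12212378 to 14393292 counts, and shControl replicate 1 stood apart from the other control libraries. Its departure followed the base composition and length of transcripts: the trend of its log2 counts on GC content and length explained 49.97% of its deviations over genes, beside 3.61% to 34.5% in the other 5 libraries. For this reason the main results are given from 3 fits, namely with all 6 libraries, without shControl replicate 1, and with all 6 libraries after the trend on GC content and length had been taken out of each. The fit without shControl replicate 1 was not free of the trend. Both of its control libraries had negative slopes on GC content and positive slopes on length, and shSQLE did not share them throughout. Whether these trends came from the RNA, the library preparation or the sequencing was not tested. SQLE itself was at 1349, 1867 and 1924 normalized counts in shControl and at 229, 204 and 219 in shSQLE, a log2 fold change of -2.98 (SE 0.17, adjusted p = 0.000299), and it passed the test in all 15 alternatives. A normalized count is the count scaled to the mean effective library size. Of 12 osteoblast and mesenchymal markers 7 were tested, but SP7 and IBSP, which mark osteoblasts, had no count, and the summed level of the list, mostly VIM, was 37931 to 44152 in shControl and 41486 to 46950 in shSQLE. Within that list ALPL, BGLAP and COL1A2 were also too low to be tested. COL1A1, for a collagen of bone, was at 170, 166 and 157 in shControl and at 101, 104 and 109 in shSQLE. CDH11, for the cadherin of osteoblasts, was at 791, 1280 and 1300 and at 805, 763 and 873. Markers of other cell types were mostly low in every library. The exception was EPCAM, which made up most of the epithelial sum, at 53.1, 49.7 and 53.0 in shControl and at 74.4, 72.9 and 58.6 in shSQLE. The summed normalized count was 56.9 to 58.9 in shControl and 59.6 to 79.3 in shSQLE for 6 epithelial markers, 13.9 to 18.6 and 4.11 to 11.8 for 5 endothelial markers, and 4.62 to 5.43 and 1.03 to 4.93 for 6 haematopoietic markers, of which 4 were at 0 throughout. Their part in the results below was not tested.

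The mitosis and G2/M genes were mostly at or somewhat above the control level in shSQLE. Of the 40 members, 37 had a positive log2 fold change, with a median of 0.17 (all genes tested, -0.01), and the range ran from -0.32 for CDC25B to 0.46 for CCNB1. The summed normalized count of the 40 genes was 68784, 76848 and 76750 in the shControl libraries and 84371, 84131 and 89159 in the shSQLE libraries, so that each shSQLE sum lay above each shControl sum. Those sums were 0.488%, 0.590% and 0.598% of all counts in shControl and 0.613%, 0.601% and 0.671% in shSQLE. At an adjusted p under 0.05 (edgeR's quasi-likelihood test, Benjamini-Hochberg over all genes tested), 1 member rose, CCNB1, and 0 fell, beside 0.369% of all genes tested that were called higher and 2.84% called lower. At an unadjusted p under 0.05, 12 members were higher and 1 lower, where 4.83% of all genes tested were higher and 9.89% lower.

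Without shControl replicate 1, 17 members were called higher and 0 lower, where 15.6% of all genes tested were called higher and 18.3% lower in the same fit. The members no longer leaned one way as evenly in that fit: 25 had a positive and 15 a negative log2 fold change, with a median of 0.13. After the trend on GC content and length was taken out, 15 members were called higher and 1 lower, where 6.91% of all genes were called higher and 10.4% lower, and 39 of the 40 log2 fold changes were positive, with a median of 0.20. The shares of all genes in this fit and in the fit without shControl replicate 1 also apply to the calls in each role group below. How many of all genes were called higher in both of these fits, which share most of their libraries, was not counted. The 10 members called higher in both were AURKA, CCNB1, CDC20, CDC25C, CENPA, ESPL1, FOXM1, KIF2C, PLK1 and TPX2. DESeq2 on all 6 libraries called 4 of them higher, AURKA, CCNB1, CENPA and ESPL1, and 0 members lower, where it called 1.14% of the 13852 genes with an adjusted p higher and 4.01% lower. In 13 members all 3 shSQLE libraries lay above all 3 shControl libraries and in 1, CDC25B, all lay below, where 10.0% and 12.1% of all genes tested did so.

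**Figure D2:**
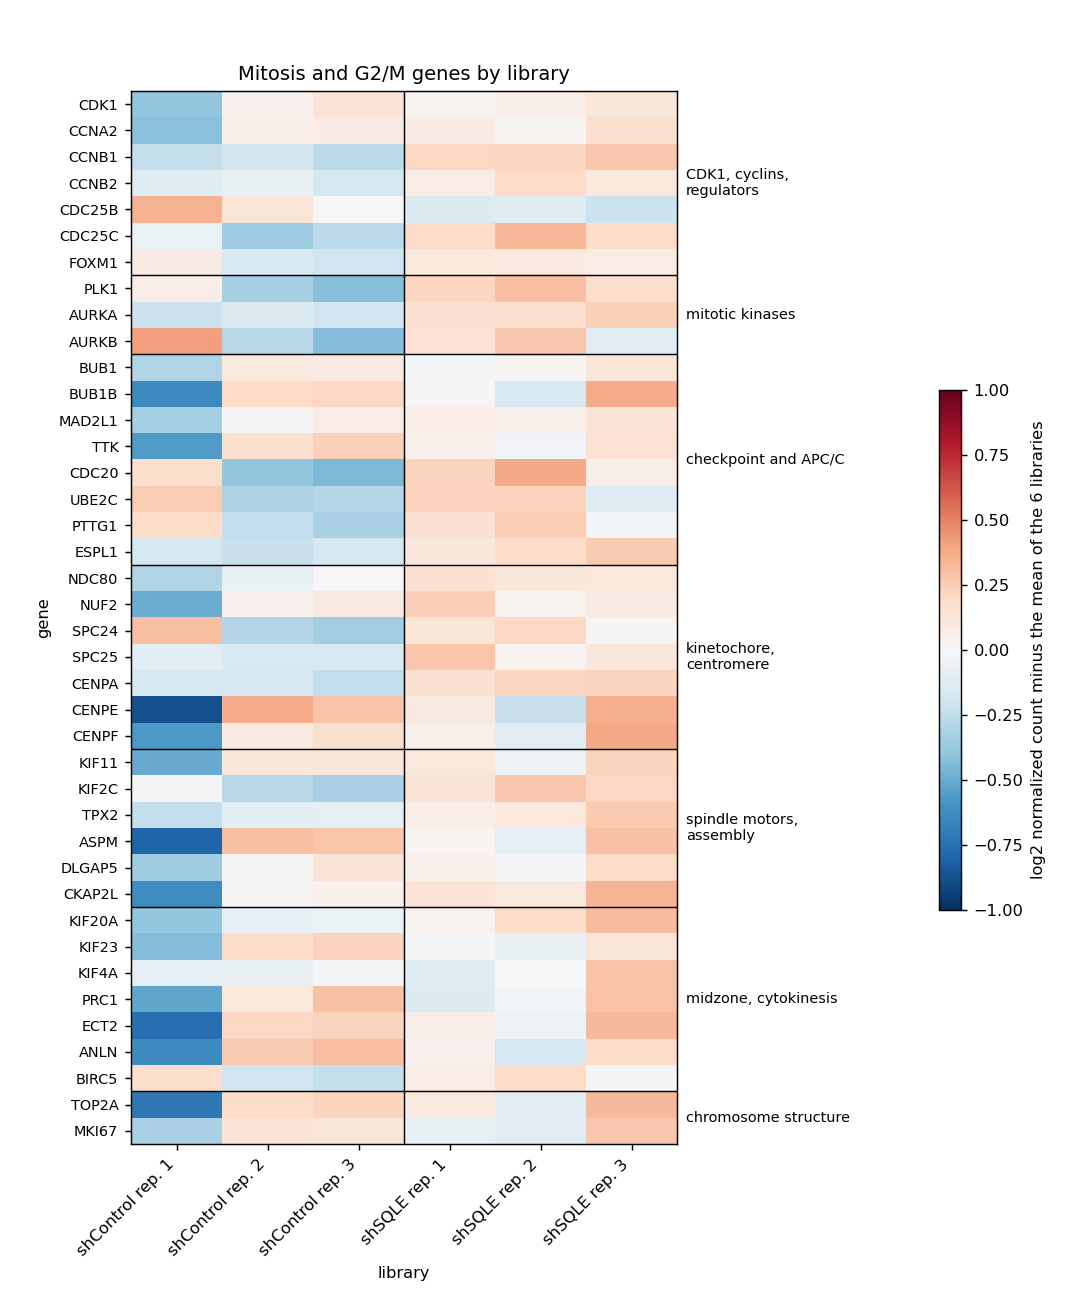
Log2 normalized count of each of the 40 members in each library, as the difference from the member's mean over the 6 libraries (colour scale, red higher and blue lower), with rows grouped by role. In shControl replicate 1 23 members had their lowest value of all 6 libraries and 4 their highest, while the other control libraries resembled each other.

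Among CDK1, its cyclins and their regulators, CCNB1 was the most abundant per kilobase of transcript, with CDK1 close to it, and the only member to pass the test with all 6 libraries. The group's median over 7 genes was 0.18 with all libraries, 0.25 without shControl replicate 1, where 4 were called higher, and 0.16 with GC content and length taken out, where 3 were called higher and 1 lower. CCNB1 (ENSG00000134057, hg38 chromosome 5, 69167135 to 69178245) encodes cyclin B1, the partner of CDK1 at mitotic entry. Its normalized count was 3108, 3230 and 3059 in shControl and 4230, 4256 and 4411 in shSQLE. The groups were well separated, at 3133 ± 87.9 and 4299 ± 97.5 (SD, n = 3 each), or 1.37 times as high in shSQLE. The log2 fold change was 0.46 (SE 0.09, adjusted p = 0.0399), it was 0.45 without shControl replicate 1 (adjusted p = 0.000944) and 0.41 with GC content and length taken out (adjusted p = 0.0018). The call was nevertheless close to the threshold, since CCNB1 passed in 7 of the 15 alternatives, and its adjusted p was 0.148 to 0.215 in each of the 5 fits that left out a library other than shControl replicate 1.

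CCNB2, for cyclin B2, was at 985, 1013 and 947 in shControl and at 1124, 1223 and 1151 in shSQLE, with no overlap between the groups (log2 fold change 0.25, SE 0.10, adjusted p = 0.309). It passed the test only without shControl replicate 1 among the 3 fits (0.25, adjusted p = 0.0388), with 0.16 (adjusted p = 0.113) when GC content and length were taken out. CDC25C, a phosphatase that activates CDK1, was at 335, 273 and 293 in shControl and at 400, 442 and 399 in shSQLE. All its shSQLE values were above the controls, and its log2 fold change of 0.46 (SE 0.13, adjusted p = 0.134) was 0.55 without shControl replicate 1 (adjusted p = 0.00286) and 0.41 with GC content and length taken out (adjusted p = 0.0162). CDC25B, the related phosphatase that acts at the onset of mitosis, lay the other way. Its normalized count was 1665, 1419 and 1309 in shControl and 1191, 1205 and 1127 in shSQLE, so every shSQLE value was below every control value. The log2 fold change was -0.32 (SE 0.12, adjusted p = 0.270), it was -0.22 without shControl replicate 1 (adjusted p = 0.0617), and it passed the test with GC content and length taken out (-0.32, adjusted p = 0.0055).

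FOXM1, the transcription factor of G2/M genes, was at 2152, 1830 and 1771 in shControl and at 2198, 2176 and 2151 in shSQLE. Only shControl replicate 1 came near the shSQLE values, and the log2 fold change of 0.18 (SE 0.11, adjusted p = 0.539) was 0.27 without that library (adjusted p = 0.0155) and 0.18 with GC content and length taken out (adjusted p = 0.0437). CDK1 itself was at 2611, 3526 and 3746 in shControl and at 3474, 3577 and 3692 in shSQLE. The shSQLE values fell within the range of the control libraries, and the log2 fold change moved from 0.12 (SE 0.14, adjusted p = 0.788) to -0.02 without shControl replicate 1. CCNA2, for cyclin A2, was likewise low in shControl replicate 1, at 1640, 2295 and 2315 in shControl and 2320, 2219 and 2444 in shSQLE.

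**Figure D3:**
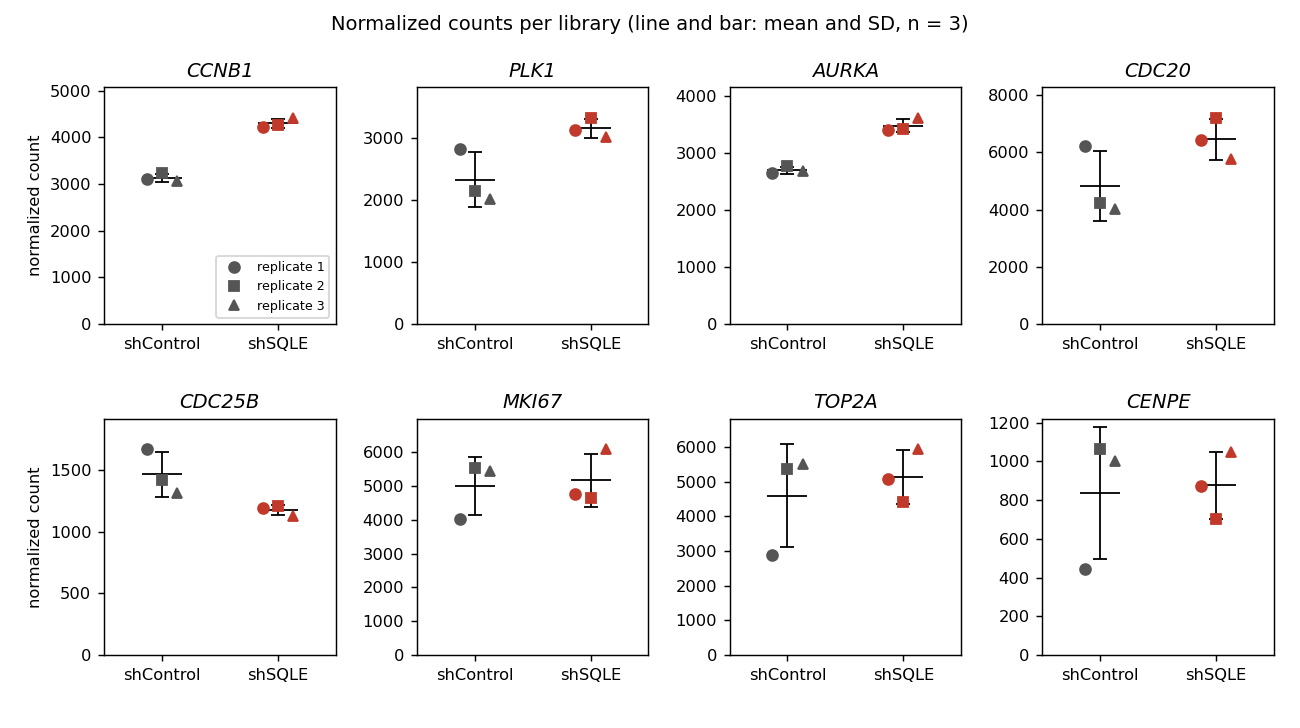
Normalized count per library of 8 members in shControl (grey) and shSQLE (red), with the mean and SD of 3 libraries as a line and bar and a symbol for each replicate number. CCNB1 and AURKA had tight groups that did not overlap, PLK1 and CDC20 were high in shControl replicate 1, and MKI67, TOP2A and CENPE were low in it.

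The role group of mitotic kinases held PLK1, AURKA and AURKB. The kinases BUB1 and TTK, each at a log2 fold change of 0.07 with all 6 libraries, were grouped with the checkpoint genes. As drawn, the group of 3 had the highest median of the role groups with all 6 libraries, 0.37. In it 0 passed the test and 2 were higher at an unadjusted p under 0.05, where 4.83% of all genes tested were. All 3 were called without shControl replicate 1 (median 0.46) and 2 with GC content and length taken out (median 0.31). AURKA, for the Aurora kinase of centrosomes and spindle poles, was at 2648, 2771 and 2690 in shControl and at 3410, 3427 and 3616 in shSQLE. The groups did not overlap and were tight, at 2703 ± 62.5 and 3484 ± 114 (SD, n = 3 each). Its log2 fold change was 0.37 (SE 0.09, adjusted p = 0.0895), with 0.35 (adjusted p = 0.0043) without shControl replicate 1 and 0.31 (adjusted p = 0.00401) with GC content and length taken out. DESeq2 also placed it past the threshold (adjusted p = 0.00805).

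PLK1, the polo-like kinase of centrosome maturation and mitotic entry, was at 2834, 2150 and 2013 in shControl and at 3137, 3325 and 3027 in shSQLE. All shSQLE values were above all controls, but shControl replicate 1 lay nearer to them than to the other controls. The log2 fold change of 0.44 (SE 0.14, adjusted p = 0.193) was 0.60 without that library (adjusted p = 0.000196) and 0.41 with GC content and length taken out (adjusted p = 0.000671). AURKB, the kinase of the chromosomal passenger complex, was at 2964, 1834 and 1650 in shControl and at 2467, 2680 and 2059 in shSQLE. Its highest value of all was in shControl replicate 1, and its log2 fold change of 0.16 (SE 0.22, adjusted p = 0.825) was 0.46 without that library (adjusted p = 0.00612) but 0.10 with GC content and length taken out (adjusted p = 0.321).

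The 8 genes of the spindle checkpoint, the APC/C and sister separation all had positive log2 fold changes, with a median of 0.18 and a range of 0.07 to 0.42, and 0 passed the test with all 6 libraries. The median was 0.21 without shControl replicate 1, with 3 negative values and 4 genes called higher, and with GC content and length taken out it was 0.14, with 2 called higher. CDC20, which activates the APC/C, was at 6231, 4216 and 4030 in shControl and at 6432, 7190 and 5755 in shSQLE. The groups overlapped only through shControl replicate 1, and the log2 fold change of 0.42 (SE 0.18, adjusted p = 0.339) was 0.65 without it (adjusted p = 0.000402), the highest of any member in that fit, and 0.38 with GC content and length taken out (adjusted p = 0.0012). ESPL1, for separase, the protease that cleaves cohesin, was at 932, 895 and 926 in shControl and at 1131, 1184 and 1253 in shSQLE. Its size changed little, with log2 fold changes of 0.37 (SE 0.10, adjusted p = 0.118), 0.39 (adjusted p = 0.00543) and 0.44 (adjusted p = 0.00117) in the 3 fits, but its adjusted p was 0.287 to 0.433 when any library but shControl replicate 1 was left out. At 0.44, ESPL1 was the highest member once GC content and length had been taken out.

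UBE2C, the ubiquitin-conjugating enzyme of the APC/C and the most abundant member per kilobase, was at 3847, 2593 and 2645 in shControl and at 3778, 3786 and 2949 in shSQLE. PTTG1, for securin, the inhibitor of separase, was at 1576, 1168 and 1105 and at 1540, 1651 and 1356. In both, shControl replicate 1 lay within or above the shSQLE range, and both were called without it, at 0.42 each, with adjusted p of 0.00891 for UBE2C and 0.00623 for PTTG1. Neither passed with GC content and length taken out, at 0.11 (adjusted p = 0.258) and 0.14 (adjusted p = 0.149). The 4 remaining genes of the group had a lower GC content (36.4% to 43.1%) than the 4 above (45.7% to 57.0%). BUB1, a checkpoint kinase of kinetochores, was at 1150, 1516 and 1503 in shControl and at 1401, 1441 and 1542 in shSQLE, and BUB1B, for BUBR1, which inhibits CDC20, was at 878, 1572 and 1576 and at 1377, 1228 and 1769. TTK, for the kinase MPS1 that starts checkpoint signalling, was at 397, 659 and 696 and at 611, 580 and 651. In each of them shControl replicate 1 was the lowest library, and without it the log2 fold changes were -0.05, -0.11 and -0.14, with adjusted p from 0.257 to 0.692. MAD2L1, for the checkpoint protein MAD2, was at 1537, 1959 and 2040 and at 2039, 2008 and 2122, with 0.04 in that fit.

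All 7 kinetochore and centromere genes had positive log2 fold changes with all 6 libraries (median 0.22), and 0 passed the test. Leaving out shControl replicate 1 gave a median of 0.16, with 2 negative values, and with GC content and length taken out it was 0.21, with 3 genes called higher in each fit. CENPA, the histone H3 variant of centromeres, was at 552, 548 and 524 in shControl and at 688, 720 and 723 in shSQLE. The groups did not overlap, with log2 fold changes of 0.39 (SE 0.11, adjusted p = 0.112), 0.41 without shControl replicate 1 (adjusted p = 0.0053) and 0.30 with GC content and length taken out (adjusted p = 0.0308). CENPA overlaps SLC35F6 on the same strand, and how reads in the shared stretch were treated in counting is not given.

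NDC80, SPC24, SPC25 and NUF2 encode the 4 subunits of the NDC80 complex, which binds spindle microtubules. NDC80, the most abundant of the group per kilobase, was at 1472, 1723 and 1820 in shControl and at 2018, 1962 and 1949 in shSQLE, without overlap. Its log2 fold change of 0.24 (SE 0.11, adjusted p = 0.390) was 0.16 without shControl replicate 1 (adjusted p = 0.130) and 0.21 with GC content and length taken out (adjusted p = 0.0241). SPC24 had the reverse dependence, at 897, 592 and 572 in shControl and 792, 840 and 734 in shSQLE, with 0.44 without shControl replicate 1 (adjusted p = 0.00443) and 0.17 with GC content and length taken out (adjusted p = 0.260). SPC25 was at 412, 398 and 398 and at 539, 451 and 479, and NUF2 was at 448, 652 and 672 and at 752, 649 and 668.

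CENPE, a kinetochore motor, and CENPF, a large protein of the outer kinetochore, have the longest transcripts of the kinetochore group. CENPE was at 446, 1061 and 1001 in shControl and at 874, 705 and 1049 in shSQLE, with the lowest GC content of all 40 members (35.1%). Its control values differed among themselves by more than the groups did, and the log2 fold change of 0.07 (SE 0.31) became -0.23 without shControl replicate 1 (adjusted p = 0.184) and 0.24 with GC content and length taken out (adjusted p = 0.183). CENPF was at 1309, 2087 and 2179 and at 2023, 1811 and 2535, with -0.01 (adjusted p = 0.972) and 0.31 (adjusted p = 0.0088) in those fits.

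The 6 spindle motors and assembly factors had positive log2 fold changes with all 6 libraries (median 0.23), 0 of them past the test. Their median was 0.09 without shControl replicate 1, with 4 positive and 2 negative values and 2 called higher, and with GC content and length taken out it was 0.26, with 4 called higher. TPX2, which activates Aurora A on spindle microtubules and was the most abundant of the group per kilobase, was at 4003, 4388 and 4430 in shControl and at 4958, 5094 and 5678 in shSQLE. The groups did not overlap, and the log2 fold change was 0.29 (SE 0.10, adjusted p = 0.228), 0.25 without shControl replicate 1 (adjusted p = 0.0314) and 0.28 with GC content and length taken out (adjusted p = 0.00783). KIF2C, for the microtubule-depolymerizing kinesin MCAK, was at 2074, 1724 and 1665 in shControl and at 2280, 2515 and 2411 in shSQLE. It also separated the groups, with log2 fold changes of 0.40 (SE 0.12, adjusted p = 0.150), 0.50 (adjusted p = 0.000721) and 0.37 (adjusted p = 0.00907) in the same order of fits.

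CKAP2L, a spindle protein, was at 775, 1200 and 1226 in shControl and at 1312, 1273 and 1509 in shSQLE, all above the controls, and KIF11, the kinesin that pushes spindle poles apart, was at 1599, 2461 and 2458 and at 2450, 2191 and 2651. Both had low values in shControl replicate 1. Without it their log2 fold changes were 0.17 (adjusted p = 0.171) for CKAP2L and -0.02 (adjusted p = 0.903) for KIF11, and both passed with GC content and length taken out, at 0.41 (adjusted p = 0.00162) and 0.22 (adjusted p = 0.0216). ASPM, a protein of spindle poles with a long transcript of low GC content, was at 620, 1330 and 1311 and at 1093, 1015 and 1325, where the remaining control libraries lay close to or above the shSQLE values. DLGAP5, a microtubule-binding protein of the spindle, was at 1403, 1817 and 1964 and at 1864, 1783 and 2044.

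Genes of the midzone, cytokinesis and the chromosomal passenger complex lay close to the control level. Of 7, 5 had a positive log2 fold change (median 0.13) and 0 passed the test. At an unadjusted p under 0.05, 1 was higher, where 4.83% of all genes tested were. Without shControl replicate 1 the direction turned, to a median of -0.09 with 3 positive and 4 negative values. In that fit 1 was called higher, where 15.6% of all genes tested were. With GC content and length taken out the median was 0.12, with 1 called higher, where 6.91% of all genes were. The gene with an unadjusted p under 0.05 was KIF20A, for the kinesin MKLP2 of the central spindle, at 670, 829 and 838 in shControl and 895, 994 and 1089 in shSQLE, all above the controls. Its log2 fold change was 0.35 (SE 0.14, adjusted p = 0.281), 0.25 without shControl replicate 1 (adjusted p = 0.0613) and 0.32 with GC content and length taken out (adjusted p = 0.0385). BIRC5, for survivin, a passenger protein and the most abundant of the group per kilobase, was at 2519, 1949 and 1888 and at 2340, 2539 and 2199, with 0.30 without shControl replicate 1 (adjusted p = 0.0165) and 0.12 with GC content and length taken out (adjusted p = 0.322).

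ANLN was at 1520, 2814 and 2920 in shControl and at 2424, 2092 and 2678 in shSQLE. KIF23, for the kinesin MKLP1 of the central spindle, was at 1150, 1762 and 1822 and at 1532, 1479 and 1692. In both, shControl replicates 2 and 3 were above all 3 shSQLE libraries, and the log2 fold changes without replicate 1 were -0.26 (adjusted p = 0.0561) for ANLN and -0.19 (adjusted p = 0.0943) for KIF23. ECT2, the exchange factor that activates RhoA at the cleavage furrow, was at 1211, 2356 and 2388 and at 2135, 1972 and 2558, and KIF4A, a chromosome-bound kinesin, was at 1306, 1322 and 1378 and at 1280, 1394 and 1696. PRC1, which bundles antiparallel microtubules of the midzone, was nearly uncounted, with 9 to 19 raw counts in a library. An unnamed protein-coding gene (ENSG00000284946) overlaps PRC1 on the same strand and had 25 to 59 counts, so the level of PRC1 is uncertain and its fold change carries little weight.

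The 2 genes of chromosome structure, both common markers of proliferating cells, showed no difference past the spread of the libraries. MKI67, for the Ki-67 protein that coats mitotic chromosomes, was at 4012, 5528 and 5440 in shControl and at 4773, 4641 and 6076 in shSQLE. The groups overlapped throughout, at 4993 ± 851 and 5163 ± 793 (SD, n = 3 each), with a log2 fold change of 0.05 (SE 0.16, adjusted p = 0.936). The log2 fold change of MKI67 was -0.09 without shControl replicate 1 (adjusted p = 0.554) and 0.13 with GC content and length taken out (adjusted p = 0.206). TOP2A, for the topoisomerase that untangles sister DNA, was at 2887, 5372 and 5521 and at 5075, 4399 and 5926. Its log2 fold change of 0.16 (SE 0.24, adjusted p = 0.842) became -0.08 (adjusted p = 0.560) and 0.26 (adjusted p = 0.0780) in those fits.

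**Figure D4:**
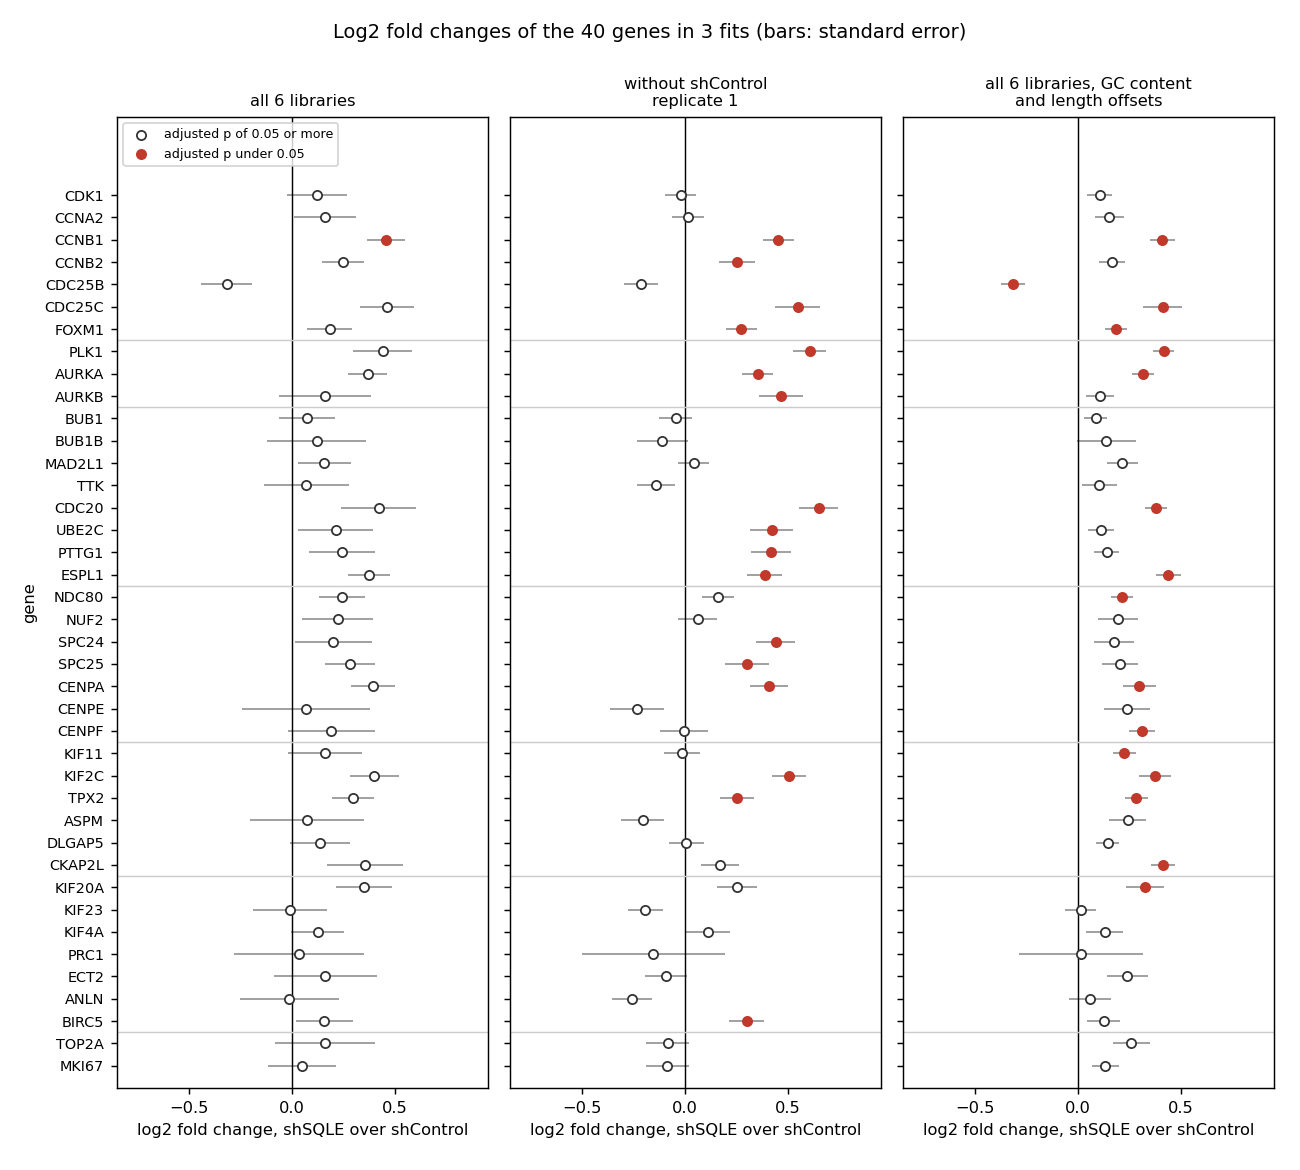
Log2 fold change (shSQLE over shControl) of the 40 members with its standard error as a bar, in the fit of all 6 libraries, without shControl replicate 1, and after GC content and length were taken out. Filled points had an adjusted p under 0.05. The fits called 1, 17 and 16 members, and CCNB1 was called in all 3.

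The split among the members followed GC content. The 40 members had a median GC content of 43.8% and a median transcript length of 3019 bases, beside 48.4% and 3433 bases over all genes tested. Over the 40 members, the difference of shControl replicate 1 from the mean of replicates 2 and 3 rose with GC content (Pearson r = 0.80, Spearman rho = 0.78) and fell with length (r = -0.57, rho = -0.66). These are correlations across genes of the same libraries, and genes are not independent replicates. The log2 fold change without shControl replicate 1 had r = 0.60 with GC content, and with GC content and length taken out r was -0.02, as that fit is built to give.

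Divided at the middle of their GC content, the 20 members of 35.1% to 43.1% GC and the 20 of 44.4% to 59.1% GC gave different values according to the controls used. The GC-poor members had lower counts in shControl replicate 1 than in both other controls in 18 of 20 genes, with sums of 26572, 39790 and 40617 in shControl and 39544, 37091 and 43693 in shSQLE. Their median log2 fold change was 0.16 with all libraries, -0.02 without shControl replicate 1 and 0.21 with GC content and length taken out. The GC-rich members had higher counts in that library than in both other controls in 13 of 20 genes, with sums of 42212, 37059 and 36133 in shControl and 44827, 47040 and 45466 in shSQLE. Their median was 0.24, 0.37 and 0.18 in the 3 fits. The sums of the GC-rich members thus separated the groups with or without replicate 1, whereas those of the GC-poor members overlapped with or without it. Of the members called higher without shControl replicate 1, 15 were GC-rich and 2 GC-poor, where 15.6% of all genes tested were called higher. With GC content and length taken out, 10 GC-rich and 5 GC-poor members were called higher, where 6.91% of all genes were. The shares among all genes of like GC content were not counted, so whether this split is particular to the members was not tested.

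**Figure D5:**
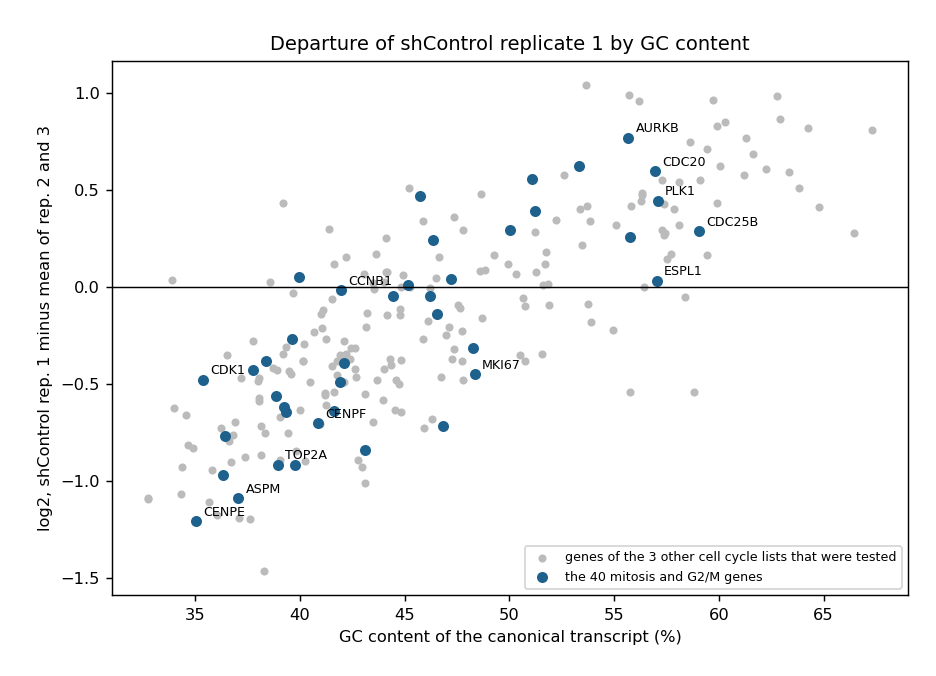
Difference on the log2 scale between shControl replicate 1 and the mean of shControl replicates 2 and 3 (vertical axis) against GC content of the canonical transcript in percent (horizontal axis), with the 40 members in blue and tested genes of the other cell cycle lists in grey. Over the members r was 0.80, with CENPE and ASPM lowest and AURKB highest.

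Other genes of mitosis, a list of 107 that shares no gene with the 40, gave similar values. With all 6 libraries 81 had a positive and 26 a negative log2 fold change (median 0.13), and 1 was called higher and 0 lower. Over all genes tested, 0.369% were called higher and 2.84% lower. All shSQLE values lay above all controls in 30 of the list and below in 1, where 10.0% and 12.1% of all genes tested did so. The called gene was PSRC1, for a spindle protein that promotes microtubule turnover, at 1516, 1104 and 1126 in shControl and 2374, 2664 and 2267 in shSQLE (log2 fold change 0.96, SE 0.15, adjusted p = 0.0151). Its adjusted p was 0.0548 to 0.0921 when any library but shControl replicate 1 was left out. PSRC1 stood above every one of the 40 members, whose highest was 0.46. KPNA2, for an importin of nuclear transport that regulates TPX2, was at 3956, 4322 and 4227 and at 5363, 5567 and 5568 (0.40, adjusted p = 0.0698). CDKN3, for a phosphatase that acts on CDKs, was at 867, 826 and 773 and at 1253, 1185 and 1018 (0.49, adjusted p = 0.0860). Without shControl replicate 1, 31 of the list were called higher and 16 lower, where 15.6% and 18.3% of all genes tested were. With GC content and length taken out 27 were called higher and 1 lower, where 6.91% and 10.4% of all genes were. Among them KIF18B, for a kinesin of microtubule ends, had 0.40 (adjusted p = 0.0115) and HJURP, the chaperone that deposits CENP-A, had 0.34 (adjusted p = 0.0036) with GC content and length taken out.

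Genes of the G1/S transition and DNA replication, which act earlier in the cycle, also leaned upwards. Of 70 tested, 61 had a positive log2 fold change (median 0.11), 0 were called by edgeR and 1, CCNE1, was called lower by DESeq2. At an unadjusted p under 0.05, 8 were higher and 1 lower, beside the 4.83% and 9.89% of all genes tested. The sums of this list were 115212, 116187 and 115713 in shControl and 126374, 129167 and 128254 in shSQLE. MCM2, a subunit of the replicative helicase, was at 4366, 3737 and 3517 in shControl and 4843, 5086 and 4887 in shSQLE (0.35, adjusted p = 0.180). Cyclin E1 lay the other way. CCNE1, the G1/S partner of CDK2, was at 505, 420 and 470 and at 299.7, 355 and 294 (-0.56, adjusted p = 0.0848), and it passed with GC content and length taken out (-0.62, adjusted p = 0.00164). In that fit 13 genes of this list were called higher and 2 lower, where 6.91% and 10.4% of all genes were. Without shControl replicate 1, 21 were called higher and 6 lower, where 15.6% and 18.3% of all genes tested were.

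CDK inhibitors and other genes of cell cycle arrest were divided in direction. Of 24 listed, 22 were tested, with 9 positive and 13 negative log2 fold changes (median -0.08), and 0 were called by edgeR. At an unadjusted p under 0.05, 1 was higher and 3 lower, where 4.83% and 9.89% of all genes tested were. Without shControl replicate 1, 2 were called higher and 6 lower, where 15.6% and 18.3% of all genes tested were. With GC content and length taken out 0 were called higher and 2 lower, where 6.91% and 10.4% of all genes were. CDKN2A and CDKN2B had no count in any library. CDKN1A, for p21, was at 2156, 1531 and 1410 in shControl and at 1894, 1791 and 1445 in shSQLE (0.01, SE 0.18, adjusted p = 0.991). CDKN1B, for p27, was at 285, 467 and 479.7 and at 368, 367 and 370.0 (-0.16, adjusted p = 0.801), and it passed without shControl replicate 1 (-0.36, adjusted p = 0.0132). CCNG2, an unusual cyclin linked to arrest, was at 209, 276 and 312 and at 159.6, 162 and 193, with no overlap (-0.63, adjusted p = 0.135).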

How the data were processed

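Poly(A) RNA of U2OS cells was sequenced in 3 shSQLE and 3 shControl libraries as paired reads of 151 bp, and samples were grouped by their labels. Per the submitters' processing notes, reads were trimmed with fastp 0.20.0, aligned to hg38 with STAR 2.7.9a and counted with featureCounts 2.0. What the authors deposited is the raw count of each gene, without normalization. The annotation release, strand setting and treatment of multi-mapping reads are not given in the sources used here. Of the 40 members, 14 overlap another protein-coding gene, 3 of them on the same strand. The lists, members and named genes were chosen with earlier results of these data known.

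Counts were tested with edgeR 4.0.16 in R 4.3.3 (TMM, filterByExpr, quasi-likelihood test, no covariate, Benjamini-Hochberg at 0.05), with normalized counts at the mean effective library size and SE taken as the log2 fold change divided by the square root of F. The study names DESeq2, which was the alternative (version 1.42.0). GC content and length of canonical GENCODE transcripts were taken out by smooth trends within each library (mgcv 1.9.3), used as offsets. Only the fit with all libraries was checked on simulated counts, which held no trend on GC content or length. The 15 alternatives were other scalings and filters, the replicate block, the GC and length offsets without and with it, DESeq2, and leaving out each library. Values per library were given for MKI67, the most abundant member of each role, called members, up to 16 members with the smallest p without shControl replicate 1, and up to 5 genes of each other list; further members were named after their values were seen. Libraries of a group were not copies: the smallest chi-square per gene between a pair was 2.76.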

Additional observations from a re-analysis of the deposited data

How the results depend on the processing

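With all 6 libraries 1 of the 40 members was called, and this count was 0 with library size only, 0 without a filter on low counts, 0 with the replicate block, 16 with GC content and length taken out, 14 with both that correction and the replicate block, 4 by DESeq2 and 0 to 17 when a library was left out; it was 1 in the other alternatives. The 17 came without shControl replicate 1, and each of the other 5 left 0. Other mitotic genes gave 28, 30 and 7 calls with GC content and length taken out, with the block added and by DESeq2, and 0 to 47 when a library was left out. G1/S genes gave 15, 14, 1 and 0 to 27, and all genes tested gave 2153, 2003, 714 and 109 to 4264, beside 400. The members' median moved by less than the spread between libraries (0.127) throughout. PSRC1 lost its call in the 5 fits that left out a library other than shControl replicate 1. The causes were not tested.

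No steady pairing by replicate number was seen, as deviations of same-numbered libraries correlated at 0.14, -0.43 and 0.54. These values cannot exclude a pairing, since there were 3 libraries in a group and shControl replicate 1 stood apart. With the replicate block 0 members were called, since CCNB1 lost its call, and among the other named genes no call changed.

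With no library left out, signs changed only for values near 0. KIF23 (-0.01) became 0.00 with RLE or upper-quartile factors, 0.02 with the replicate block, 0.01 with GC content and length taken out, 0.02 with both and 0.01 by DESeq2. ANLN (-0.01) became 0.00 with RLE, 0.04, 0.06 and 0.07 with the block, the GC correction and both, and 0.00 by DESeq2. With library size only PRC1 became -0.01, CDKN1A -0.02 and LIN52 -0.02. CDKN1A became -0.01 and, with the block, -0.02 with GC content and length taken out, and LIN9 0.01 in the latter. Leaving out each library gave ranges of -0.02 to 0.24 for CDK1, -0.05 to 0.14 for BUB1, -0.11 to 0.26 for BUB1B, -0.14 to 0.23 for TTK, -0.23 to 0.28 for CENPE, -0.01 to 0.33 for CENPF, -0.02 to 0.27 for KIF11, -0.21 to 0.24 for ASPM, -0.19 to 0.12 for KIF23, -0.15 to 0.22 for PRC1, -0.09 to 0.33 for ECT2, -0.26 to 0.16 for ANLN, -0.08 to 0.33 for TOP2A, -0.09 to 0.13 for MKI67, -0.10 to 0.22 for CDKN1A, -0.27 to 0.19 for LIN9 and -0.11 to 0.17 for LIN52. At 12212378 to 14393292 counts a library, PRC1, with 9 to 19 of them, was the member most limited by depth.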

Other observations

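Subunits of condensin, the complex that compacts mitotic chromosomes, were all positive with all 6 libraries (8 of 8, median log2 fold change 0.16), and 0 were called by edgeR. At an unadjusted p under 0.05, 1 was higher, where 4.83% of all genes tested were. With GC content and length taken out 3 were called higher, where 6.91% of all genes were. Without shControl replicate 1 their median was 0.07, with 6 positive and 2 negative values and 2 called higher, where 15.6% of all genes tested were. Their summed normalized counts were 12732, 16182 and 16798 in shControl and 16274, 15984 and 18645 in shSQLE, which overlap. Subunits of the APC/C gave 6 positive and 5 negative log2 fold changes (median 0.02), with 0 called and 0 at an unadjusted p under 0.05. Without shControl replicate 1 their median was 0.11 and 2 of these 11 were called lower, near the 18.3% of all genes tested. Their sums were 9968, 9979 and 10028 in shControl and 9874, 9846 and 10317 in shSQLE.

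MYBL2, for the factor B-MYB that joins the MuvB core to activate G2/M genes, was at 6062, 4117 and 3754 in shControl and 5564, 5723 and 4809 in shSQLE. Its log2 fold change was 0.21 (adjusted p = 0.696), 0.45 without shControl replicate 1 (adjusted p = 0.00315) and 0.22 with GC content and length taken out (adjusted p = 0.0437). LIN54, the MuvB subunit that binds the CHR, was at 164, 317 and 293 and at 196, 231 and 194 (-0.32, adjusted p = 0.638), with -0.56 without shControl replicate 1 (adjusted p = 0.00486). LIN9 and LIN52, the remaining MuvB subunits listed, had log2 fold changes of -0.05 and 0.03.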
